A study of Mus musculus with 12 samples.

Results

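The small leucine-rich proteoglycans are secreted proteins of the extracellular matrix, and 9 of their genes were followed here through the differentiation of mouse embryonic stem cells: Dcn (decorin), Bgn (biglycan), Aspn (asporin), Fmod (fibromodulin), Lum (lumican), Prelp, Omd (osteomodulin), Ogn (osteoglycin) and Podn (podocan). They were chosen by family membership, and all probes that their RefSeq accessions name were taken. The 9 genes had 10 probes of the 41174 on the array, 2 of them for Prelp, and 7 of the 9 were among the 20875 genes that entered the tests. Omd and Podn did not, because no group had 3 of its 4 arrays well above background for them. Total RNA was read on 12 one-colour Agilent arrays in 3 groups of 4: mouse embryonic stem cells (mESC), cells taken at Day 9 and cells taken at Day 14, where the design text speaks of cardiomyocyte differentiation. One culture text is repeated for every sample. It names dishes coated with a crosslinked elastin-like polypeptide (ELP), a medium without LIF, the factor that holds mouse stem cells undifferentiated, and after that a serum-replacement medium, with no cardiac differentiation factor according to the title. The labels name no strain or line and call the cells of all 3 groups embryonic stem cells. Whether the replicates come from separate cultures is not stated either, and the p-values cover just the spread among these arrays, which may be a technical one. Slides and scans each held a single group, so their effect and that of the group cannot be told apart.

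Small leucine-rich proteoglycans have a curved core of leucine-rich repeats that binds collagen fibrils and sets how thick and how evenly spaced the fibrils become. Class I members such as decorin and biglycan carry chondroitin or dermatan sulfate chains, while class II members such as fibromodulin and lumican carry keratan sulfate and sulfated tyrosines. Several of them also bind growth factors, TGF-beta among them, and cell surface receptors. In the heart they are made mainly by fibroblasts and other interstitial and valve cells, and they are known from fibrous scars, tendon, skin, cornea and bone.

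A level is given as the log2 processed signal of a probe minus the 75th percentile of its array, so 0 is the brightness that 75% of the spots on that array do not exceed. Levels of different probes were not set against each other. That percentile ranged over 345.9 to 386.2 in mESC, 395.1 to 438.4 in the Day 9 group and 463.4 to 507.7 in the Day 14 group. Between 59.5% and 67.9% of probes stood well above background. On this scale the faintest probes counted as above background lay between −6.12 and −5.26. The 9 tested pluripotency markers all fell at both days against mESC, and the 10 cardiomyocyte markers all rose. Arrays of 1 group correlated at 0.989 or more across genes, which are not independent replicates. Precision is limited by how many arrays there were. A gene was called higher or lower at an adjusted p under 0.05 with a log2 fold change of at least 1 in size. Of all tested genes 4750 were called higher and 5033 lower at Day 14 against mESC, or 3987 higher and 6986 lower when arrays were scaled to their median. Between Day 14 and Day 9 the calls were 2126 higher and 754 lower, or 1745 higher and 1220 lower with median scaling. The median log2 fold change of all genes was −0.19 for Day 14 over mESC, −0.16 for Day 9 over mESC and −0.09 for Day 14 over Day 9, and median scaling moved these to −0.51, −0.29 and −0.28.

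RefSeq promoter windows from 250 bases before to 50 bases after the gene start were held for 7 of the 9 genes, in build GRCm38.p6. Those of Aspn, Omd and Ogn are shown, since these genes are neighbours on chromosome 13 whose probes passed background at different times. Capitals mark matches on either strand to TATAAA (the letters of a TATA box) or GGAATG (those of the core of a TEAD site). Whether any match works as such a site was not tested. Each window is printed in the direction of transcription. They span chr13:49544193-49544492 for Aspn, chr13:49582212-49582511 for Omd and chr13:49607765-49608064 for Ogn, all on the plus strand.
Aspn: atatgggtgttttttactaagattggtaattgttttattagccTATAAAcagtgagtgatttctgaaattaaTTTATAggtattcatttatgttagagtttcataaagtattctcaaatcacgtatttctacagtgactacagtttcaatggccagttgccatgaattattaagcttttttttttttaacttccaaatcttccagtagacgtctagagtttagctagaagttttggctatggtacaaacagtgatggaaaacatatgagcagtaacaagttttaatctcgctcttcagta
Omd: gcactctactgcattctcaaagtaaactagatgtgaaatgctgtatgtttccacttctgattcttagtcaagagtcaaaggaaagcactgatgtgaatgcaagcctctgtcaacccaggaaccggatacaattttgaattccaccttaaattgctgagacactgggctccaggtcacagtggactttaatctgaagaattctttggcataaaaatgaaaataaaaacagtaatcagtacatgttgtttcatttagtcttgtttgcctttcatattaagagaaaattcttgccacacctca
Ogn: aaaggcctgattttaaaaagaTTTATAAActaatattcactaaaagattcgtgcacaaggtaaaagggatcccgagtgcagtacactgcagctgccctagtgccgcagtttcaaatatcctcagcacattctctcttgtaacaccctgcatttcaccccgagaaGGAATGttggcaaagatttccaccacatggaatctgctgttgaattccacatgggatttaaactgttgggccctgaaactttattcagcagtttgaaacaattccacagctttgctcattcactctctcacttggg
The Aspn window held 2 TATAAA matches, at −207 and −178 relative to the gene start, the nearer one on the opposite strand. The Ogn window held 2 overlapping TATAAA matches on opposite strands, at −229 and −227, and a GGAATG at −86. None of the 3 motifs, TGANTCA of AP-1 being the other, was found in the windows of Omd, Bgn, Fmod, Prelp or Podn. Of all 32851 promoter windows, 13.6% held TATAAA, 14.7% GGAATG and 7.81% TGANTCA. The share of G and C was 31% in the Aspn window, 37.7% in that of Omd, 42.3% in that of Ogn and 63.7% in that of Bgn, against a median of 52.7% over all windows.

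All 7 tested proteoglycan genes were higher at Day 14 than in mESC, where 46.9% of all genes were called, 22.8% higher and 24.1% lower. At Day 9, 6 of the 7 were higher than in mESC, against 41.0% of all genes called, 20.0% higher and 21.0% lower, and Aspn was the exception. All 7 were higher again at Day 14 than at Day 9, where 13.8% of all genes were called, 10.2% higher and 3.61% lower. None was called lower in any of the 3 comparisons. Dcn, Lum, Ogn and Prelp passed the brightness filter only through arrays of Day 9 and Day 14, and Aspn only through those of Day 14. The filter thus favoured their calls against mESC, and that of Aspn against Day 9, so these counts are no separate support. Bgn and Fmod passed it in all 3 groups. With normexp background correction, which adds an offset of 50 and so draws dim signals together, the 7 genes were still called higher at Day 14 than in mESC, but with log2 fold changes of 1.76 (Aspn) to 8.89 (Dcn), so the bounds given here as "at least N-fold" hold for the processed signal only. At Day 9 against mESC that correction called 4 of the 7 in place of 6, without Bgn (0.64) and Prelp (0.08). An adjusted p given beside such a bound tests the fitted log2 fold change, which uses readings below background, and not the bound. The comparisons share their groups and are not independent of each other. In RNA from whole cultures, fewer cells of a type and less RNA per cell cannot be told apart.

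**Figure D1:**
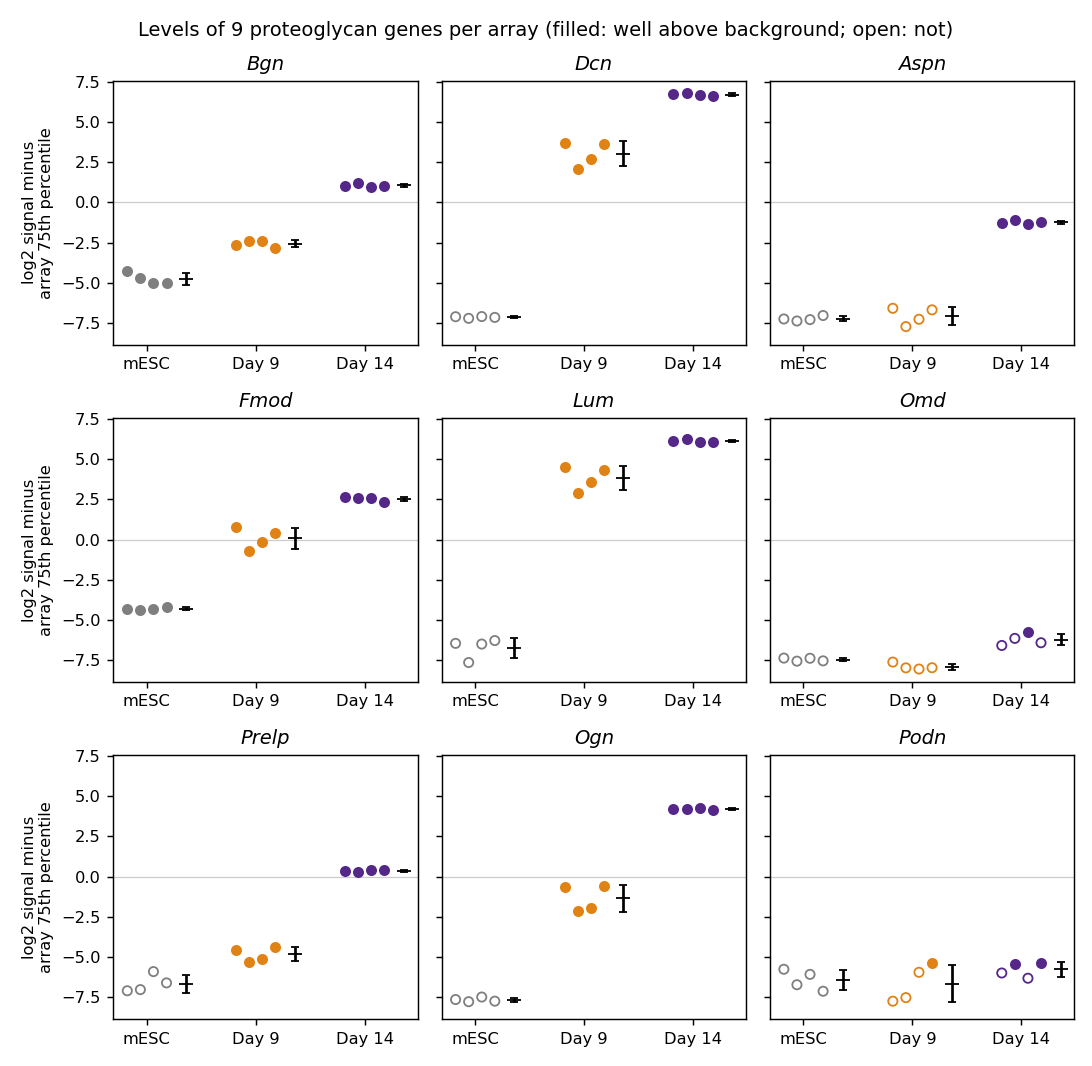
Level of each of the 9 proteoglycan genes on each array (log2 signal minus the 75th percentile of the array), by group, with the mean and SD of 4 arrays beside the points; filled points are well above background and open ones are not. Dcn is open in mESC, lies between 2.09 and 3.71 at Day 9 and between 6.60 and 6.80 at Day 14, while Aspn is filled at Day 14 and nowhere else.

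Among class I members, Dcn encodes decorin, which binds collagen fibrils and TGF-beta. Its levels were −7.11, −7.21, −7.10 and −7.15 in mESC, 3.71, 2.09, 2.68 and 3.61 at Day 9, and 6.73, 6.80, 6.68 and 6.60 at Day 14. No mESC array was well above background, the 3 groups did not overlap, and the Day 9 arrays lay wider apart than those of the other groups. The level at Day 14 was at least 4274-fold that in mESC (means 6.70 ± 0.08 and −7.14 ± 0.05, SD, n = 4 each; adjusted p = 2.42e-12), and the level at Day 9 at least 334-fold (adjusted p = 3.38e-11). From Day 9 on both sides were measured: Dcn was 12.8-fold higher at Day 14 than at Day 9 (log2 fold change 3.68 ± 0.29, SE; adjusted p = 1.06e-06).

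Bgn encodes biglycan, the close relative of decorin that also acts as a ligand of Toll-like receptors. Its levels were −4.25, −4.73, −5.04 and −5.02 in mESC, −2.63, −2.39, −2.42 and −2.84 at Day 9, and 1.05, 1.22, 0.94 and 1.02 at Day 14. It was well above background on all 12 arrays, so its changes are measured and not bounds. Bgn was 56.3-fold higher at Day 14 than in mESC (log2 fold change 5.81 ± 0.17, SE; adjusted p = 2.41e-11), 4.56-fold higher at Day 9 than in mESC (2.19 ± 0.17; adjusted p = 1.62e-07) and 12.3-fold higher at Day 14 than at Day 9 (3.62 ± 0.17; adjusted p = 1.35e-08). On the log2 scale the larger part of its change lay after Day 9. With normexp background correction the change at Day 9 against mESC was 0.64 on the log2 scale and was no longer called.

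Aspn encodes asporin, a class I protein that binds collagen and TGF-beta but lacks the usual sugar chains. Its levels were −7.25, −7.37, −7.29 and −7.03 in mESC, −6.58, −7.72, −7.26 and −6.68 at Day 9, and −1.25, −1.12, −1.34 and −1.24 at Day 14. All 8 arrays of mESC and Day 9 were below background and overlapped, and all 4 of Day 14 lay far above them. Aspn was at least 17.4-fold higher at Day 14 than in mESC (means −1.24 ± 0.09 and −7.23 ± 0.14, SD, n = 4 each; adjusted p = 1.36e-10) and at least 22.8-fold higher at Day 14 than at Day 9 (Day 9 mean −7.06 ± 0.53; adjusted p = 2.03e-09). For Day 9 against mESC no fold is given, since no array of either group measured it (adjusted p = 0.458).

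Among class II members, Fmod encodes fibromodulin, a keratan sulfate proteoglycan known from tendon and cartilage that competes with lumican for collagen. Its levels were −4.33, −4.39, −4.31 and −4.17 in mESC, 0.75, −0.72, −0.17 and 0.40 at Day 9, and 2.63, 2.56, 2.59 and 2.36 at Day 14. It too was above background on all 12 arrays, and every Day 9 array lay above all mESC arrays and below all Day 14 arrays. Fmod was 114-fold higher at Day 14 than in mESC (log2 fold change 6.84 ± 0.25, SE; adjusted p = 1.89e-10), 20.6-fold higher at Day 9 than in mESC (4.37 ± 0.25; adjusted p = 1.25e-08) and 5.54-fold higher at Day 14 than at Day 9 (2.47 ± 0.25; adjusted p = 6.93e-06).

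Lum encodes lumican, best known for the even fibril spacing of the transparent cornea. Its levels were −6.45, −7.64, −6.50 and −6.28 in mESC, 4.53, 2.90, 3.55 and 4.33 at Day 9, and 6.13, 6.23, 6.09 and 6.05 at Day 14. The mESC arrays were all below background, and the 3 groups did not overlap. Lum was at least 2873-fold higher at Day 14 than in mESC (means 6.13 ± 0.08 and −6.72 ± 0.62, SD, n = 4 each; adjusted p = 2.38e-11) and at least 584-fold higher at Day 9 than in mESC (Day 9 mean 3.83 ± 0.75; adjusted p = 1.57e-10). It was 4.92-fold higher at Day 14 than at Day 9 (log2 fold change 2.30 ± 0.37, SE; adjusted p = 0.000231), the smallest change of the 7 genes between those days.

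Prelp encodes a protein rich in proline and arginine at its start that binds heparan sulfate and collagen near basement membranes. The probe with the higher mean, which stands for the gene, read −7.09, −7.02, −5.90 and −6.60 in mESC, −4.55, −5.28, −5.12 and −4.39 at Day 9, and 0.36, 0.30, 0.42 and 0.41 at Day 14. It was below background on every mESC array and above it on every other. By this probe Prelp was at least 53.2-fold higher at Day 14 than in mESC (means 0.37 ± 0.05 and −6.65 ± 0.55, SD, n = 4 each; adjusted p = 2.31e-10), at least 1.44-fold higher at Day 9 than in mESC (adjusted p = 4.88e-05) and 37.0-fold higher at Day 14 than at Day 9 (log2 fold change 5.21 ± 0.26, SE; adjusted p = 2.82e-08). The second Prelp probe stayed dim, with means of −6.20 ± 0.61 in mESC, −7.17 ± 0.70 at Day 9 and −5.44 ± 0.38 at Day 14, and only 3 Day 14 arrays were above background. It was below background on all mESC and Day 9 arrays, so it gives no direction at Day 9 against mESC. Its fitted log2 fold change of 1.74 at Day 14 against Day 9 (adjusted p = 0.00196 over all probes) is no measured size. Compared with the stem cells, the Day 14 level of the second probe was 0.76 higher on the log2 scale (adjusted p = 0.0793 over all probes). That change meets neither part of the call rule, so the rise of at least 53.2-fold was not seen with the second probe. The call of Prelp at Day 9 against mESC was lost when this probe was averaged in (0.42) and with normexp correction (0.08).

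Omd encodes osteomodulin, a keratan sulfate proteoglycan of bone and teeth. Its levels were −7.37, −7.56, −7.38 and −7.54 in mESC, −7.62, −7.98, −8.05 and −7.97 at Day 9, and −6.58, −6.14, −5.76 and −6.42 at Day 14. Only 1 array, Day 14 replicate 3, was well above background, although the other Day 14 arrays were also higher than all others. When probes were not filtered on brightness, Omd was called at Day 14 against mESC (1.24 on the log2 scale) and at Day 14 against Day 9 (1.68), values that rest on signals at background.

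In class III, Ogn encodes osteoglycin (mimecan), which regulates collagen fibrils and is made by fibroblasts and smooth muscle. Its levels were −7.64, −7.77, −7.48 and −7.74 in mESC, −0.64, −2.14, −1.97 and −0.57 at Day 9, and 4.18, 4.19, 4.29 and 4.15 at Day 14. The Day 9 arrays lay in pairs, replicates 1 and 4 above replicates 2 and 3, while the Day 14 arrays lay close together. Ogn was at least 756-fold higher at Day 14 than in mESC (means 4.20 ± 0.06 and −7.66 ± 0.13, SD, n = 4 each; adjusted p = 1.5e-11) and at least 16.3-fold higher at Day 9 than in mESC (Day 9 mean −1.33 ± 0.84; adjusted p = 4.05e-09). It was 46.3-fold higher at Day 14 than at Day 9 (log2 fold change 5.53 ± 0.32, SE; adjusted p = 8.38e-08).

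Podn encodes podocan, a class V member known to restrain smooth muscle growth. Its levels were −5.76, −6.72, −6.07 and −7.12 in mESC, −7.74, −7.52, −5.95 and −5.39 at Day 9, and −5.99, −5.40, −6.31 and −5.36 at Day 14. The groups overlapped, and only Day 9 replicate 4 and Day 14 replicates 2 and 4 were above background. Without the brightness filter Podn was not called in any comparison, with log2 differences of 0.65 for Day 14 over mESC, −0.23 for Day 9 over mESC and 0.88 for Day 14 over Day 9.

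**Figure D2:**
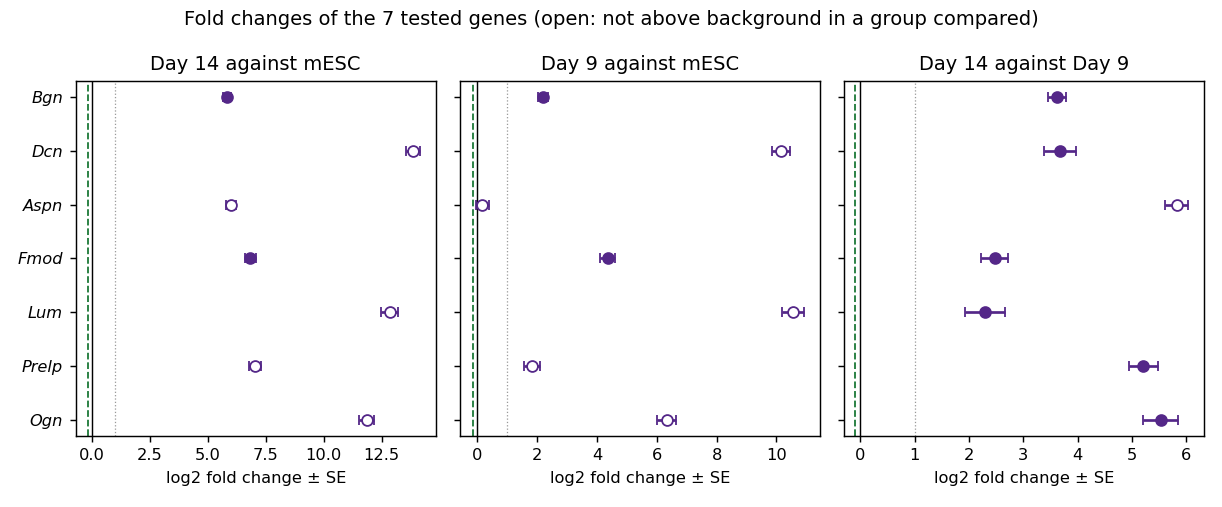
Log2 fold changes ± SE (n = 4 arrays per group) of the 7 tested genes in the 3 comparisons; open points mark comparisons in which 1 or both groups were below background on all arrays, the dashed line is the median of all tested genes and the dotted line the minimum change of 1. All points lie right of the dotted line except Aspn at Day 9 against mESC, at 0.17.

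The genes differed in how much of the Day 14 level was present at Day 9. The geometric mean signal at Day 9 was 20.3% of that at Day 14 for Lum, 18.0% for Fmod, 8.11% for Bgn and 7.81% for Dcn. It was 2.71% for Prelp and 2.16% for Ogn, and none is given for Aspn, whose Day 9 arrays were below background. These shares compare each probe with itself, and probes can differ in how evenly they read bright signals. In the order of levels within a gene, Day 14 stood above Day 9 and Day 9 above mESC without overlap in 6 genes. The share of all tested genes with this order was not counted, so the 6 have no background to be set against. For Prelp the order was read from its brighter probe. Its dim second probe ran from −7.07 to −5.63 in mESC and from −7.65 to −6.16 at Day 9, which overlap. In Aspn, Day 9 and mESC did not differ beyond their spread.

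Day 14 arrays spread less than Day 9 arrays in all 7 genes, though the Day 9 values of Aspn, below background on every array, are scatter of background readings. The SD at Day 14 was 0.055 to 0.122, against 0.21 in Bgn and 0.43 to 0.84 in the other 6 at Day 9. The SD at Day 9 over that at Day 14 was 1.79 for Bgn and 14.1 for Ogn, the lowest and highest of the 7, where the median over all tested genes was 1.58 and 72.9% of genes had the larger SD at Day 9. The SE of the fit rests on 1 variance per gene for all groups. For genes with the widest spread at Day 9 it may understate the error where Day 9 is involved. For Day 14 over mESC it may then overstate it. In Bgn and Prelp the mESC arrays spread most (SD 0.37 and 0.55), so there the SE may understate the error where mESC is involved.

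The spread at Day 9 had a common order. Replicates 1 and 4 were the highest 2 arrays in 6 of the 7 genes and the lowest 2 in Bgn. Summed over the 10 fibroblast and mesenchyme markers, the level relative to the 75th percentile was 262, 163, 204 and 260 in Day 9 replicates 1 to 4, and the 8 epicardium and mesothelium markers gave 21.6, 13.4, 15.7 and 19.9. The 10 cardiomyocyte markers ran the other way, with 214, 415, 391 and 295, and so did the 7 tested liver and visceral endoderm markers, with 39.1, 66.0, 51.6 and 44.9. Endothelium markers, at 8.53, 5.56, 7.99 and 8.59, and macrophage markers, at 0.540, 0.435, 0.457 and 0.499, were also highest in replicates 1 and 4. So the arrays with more Dcn, Lum, Fmod, Ogn, Prelp and Aspn had more signal of several marker lists, not of fibroblast and epicardium markers alone. Replicates 2 and 3, with more cardiomyocyte and more liver and endoderm signal, were those with more Bgn. How many of all tested genes follow either order was not counted. A sum follows its brightest genes: at Day 9 most of the fibroblast sum came from Col1a1, Col3a1 and Postn, and most of the liver sum from Afp. The largest part of the epicardium sum came from Krt19. Values of Aspn at Day 9 were all below background, and the part of these cell types in the spread was not tested.

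**Figure D3:**
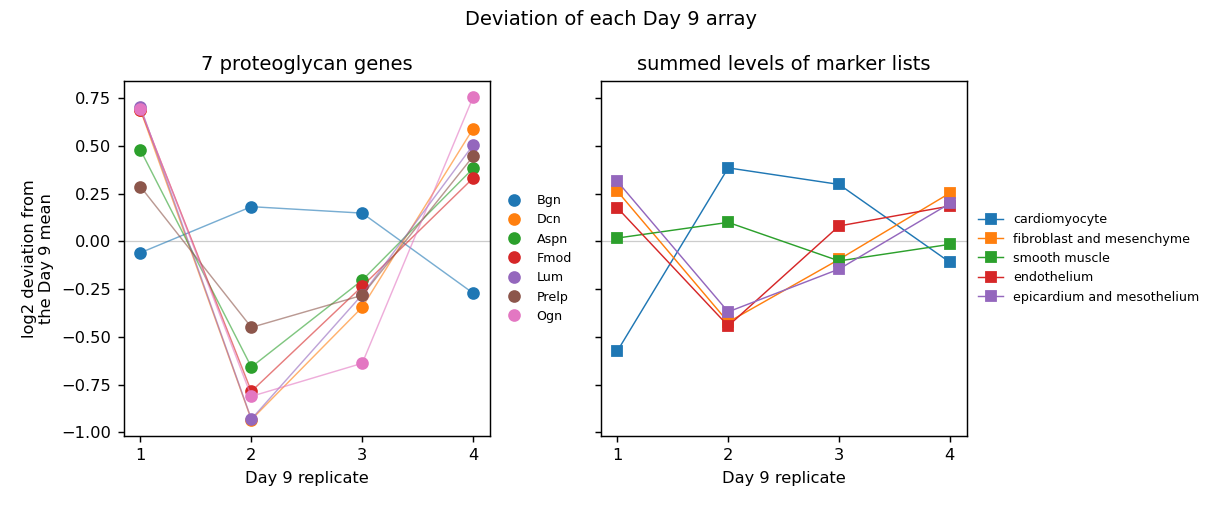
Deviation of each Day 9 array from the Day 9 mean (log2) for the 7 tested genes at left and for the summed levels of 5 marker lists at right; lines join the values of 1 gene or list and imply no order of the replicates. Replicates 1 and 4 lie above 0 for 6 genes and for the fibroblast, epicardium and endothelium lists, while Bgn and the cardiomyocyte list are highest in replicate 2.

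Between Day 14 and Day 9 the marker lists moved unevenly beside the proteoglycans. The fibroblast and mesenchyme sum was 4.64 to 4.93 in mESC, 163 to 262 at Day 9 and 203 to 224 at Day 14, so both days overlapped. At both days most of it came from Col1a1, Col3a1 and Postn, so it says little of the other markers. Their mean levels were 6.39, 5.96 and 5.69 at Day 9 and 6.58, 6.33 and 4.57 at Day 14. Of the 10 genes in this list 3 were higher at Day 14 than at Day 9 (Fap, a surface protease of activated fibroblasts, Thy1 and Ddr2), 1 was lower (Postn) and 6 were not called. Of the same 10, 4 (Tcf21, Postn, Col3a1 and Fap) were above background on no mESC array. Endothelium markers fell between the days, with 6 of 8 lower (Pecam1, Cdh5, Tek, Tie1, Emcn and Cldn5) and none higher at Day 14 than at Day 9. Their sums were 7.66 to 9.03 in mESC, 5.56 to 8.59 at Day 9 and 3.13 to 3.47 at Day 14. Most of the mESC sum was Vwf, with mean levels of 2.62 in mESC, −2.29 at Day 9 and −2.60 at Day 14. Against mESC, 6 of the 8 were higher and 2 lower at Day 9, and 4 higher and 2 lower at Day 14. Cdh5, Tie1 and Emcn were above background on no mESC array. Of 8 smooth muscle markers 2 were higher (Mylk and Myh11) and none lower at Day 14 than at Day 9, although the sum was 105 to 116 at Day 14 against 123 to 141 at Day 9. Of 10 cardiomyocyte markers 1 was lower (Actc1) and none higher, with sums of 214 to 282 at Day 14 and 214 to 415 at Day 9.

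All 10 macrophage markers were higher at Day 14 than at Day 9, with sums of 1.51 to 1.76 in mESC, 0.435 to 0.540 at Day 9 and 20.9 to 26.2 at Day 14. Of these, Adgre1, C1qa, C1qc, Fcgr1 and Cx3cr1 were above background on no Day 9 array. Most of the mESC sum was Cd68, with mean levels of 0.51 in mESC, −3.61 at Day 9 and 1.02 at Day 14.

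Epicardium and mesothelium markers summed to 6.34 to 7.19 in mESC, 13.4 to 21.6 at Day 9 and 32.6 to 38.4 at Day 14, with 5 of 8 higher at Day 14 than at Day 9 (Wt1, Upk3b, Msln, Aldh1a2 and Lrrn4). Most of the mESC sum was Msln, with mean levels of 2.29 in mESC, −4.33 at Day 9 and 1.89 at Day 14. Krt19, at 0.39, 3.30 and 3.34 in the same groups, was the largest part of the Day 9 sum. Cartilage and tendon markers summed to 1.58 to 1.77 in mESC, 5.31 to 6.27 at Day 9 and 10.8 to 11.2 at Day 14, with 5 of 9 higher at Day 14 than at Day 9 (Col2a1, Comp, Scx, Tnmd and Mkx). Matn1, a cartilage matrix gene, was above background on no array of either day, and Acan, which encodes aggrecan, was lower at both days than in mESC. Bone markers summed to 29.7 to 32.0 in mESC, 1.13 to 1.64 at Day 9 and 1.33 to 1.48 at Day 14. The mESC sum was nearly all Alpl, an alkaline phosphatase also active in stem cells, with mean levels of 4.93 in mESC, 0.03 at Day 9 and −0.12 at Day 14. Of the 6 bone markers tested, 2 were higher (Runx2 and Phex) and 2 lower (Alpl and Bglap) at Day 14 than in mESC, 1 was higher (Runx2) and 2 lower (Alpl and Bglap) at Day 9 than in mESC, and 3 were higher (Runx2, Bglap and Phex) and none lower at Day 14 than at Day 9. The probes of the remaining ones, Ibsp and Dmp1, were above background on no array. Liver and visceral endoderm markers summed to 0.161 to 0.247 in mESC, 39.1 to 66.0 at Day 9 and 192 to 207 at Day 14, with Alb, Afp and Fgb higher and Apob lower at Day 14 than at Day 9. Single markers in this account were named after their values were seen, and the part of these cell types in the proteoglycan levels was not tested.

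Most proteoglycan genes of the family lie in clusters. Dcn, Lum, Kera and Epyc follow each other on chromosome 10, Ecm2, Aspn, Omd and Ogn on chromosome 13, and Optc, Prelp and Fmod on chromosome 1, while Bgn lies on chromosome X and Podn on chromosome 4. On chromosome 10, Epyc (epiphycan, of growth cartilage) was at least 22.0-fold higher at Day 14 than in mESC by the probe used (means −0.90 ± 0.48 and −7.16 ± 0.42, SD, n = 4 each; adjusted p = 2e-09) and 23.1-fold higher at Day 14 than at Day 9 (Day 9 mean −5.43 ± 0.47; adjusted p = 2.4e-07). That probe was above background on no mESC array. A second, noisier Epyc probe was above background on 2 mESC arrays and differed by 3.40 on the log2 scale at Day 14 against mESC (adjusted p = 0.00953 over all probes). Kera (keratocan, of the cornea) stayed near background, at −5.97 ± 0.77 in mESC, −6.12 ± 0.53 at Day 9 and −5.03 ± 0.26 at Day 14, and was called only at Day 14 against Day 9 (1.09 ± 0.36, SE; adjusted p = 0.0217). Within this cluster Dcn and Lum were above background on all 4 Day 9 arrays, Epyc on 3 by the probe used, and Kera on 1.

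On chromosome 13, Ogn was above background on all 4 Day 9 arrays, and Ecm2, Aspn and Omd on none. Probes differ in how brightly they read a transcript, so these counts say when each probe passed background and give no order between the genes. Ecm2 encodes a leucine-rich matrix protein. Its fitted log2 fold change at Day 14 against mESC was 2.29 (means −5.06 ± 0.37 and −7.35 ± 0.07, SD, n = 4 each, adjusted p = 6.36e-08). At Day 14 against Day 9 it was 2.55 (adjusted p = 1.61e-07). Both use readings below background. As bounds, Ecm2 was at least 1.23-fold higher at Day 14 than in mESC and at least 1.61-fold higher at Day 14 than at Day 9. The genes on either side of the cluster moved the other way against mESC: Cenpp, of the kinetochore, changed by −1.71 ± 0.06 at Day 14 and −1.41 ± 0.06 at Day 9, and Nol8, of the nucleolus, by −2.31 ± 0.09 and −1.79 ± 0.09 (log2 ± SE; adjusted p of 3.91e-09 or less in all 4). On chromosome 1 the flanking gene Btg2 was not called in any comparison (−0.09 for Day 14 over mESC, −0.97 for Day 9 over mESC and 0.87 for Day 14 over Day 9), and on chromosome 10 Ccer1 was above background on no array.

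**Figure D4:**
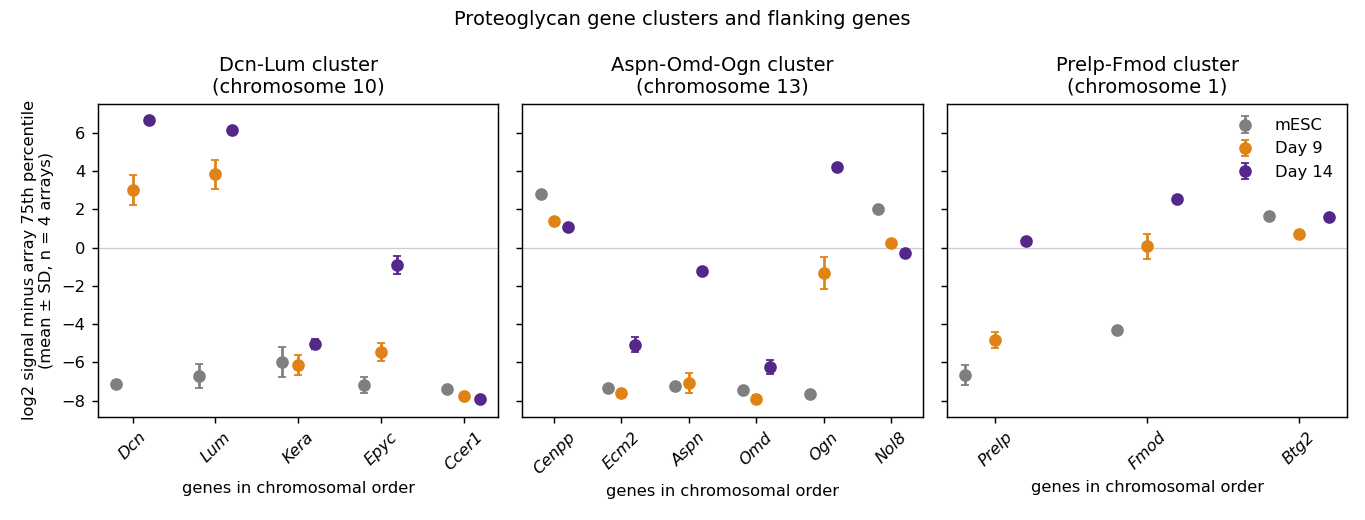
Levels (log2 signal minus the 75th percentile of the array, mean ± SD, n = 4 arrays per group) of proteoglycan genes and flanking genes in the order they have on chromosomes 10, 13 and 1; genes without a named probe (Gm46240, Atp2b4 and Optc) are not drawn. Heights of different genes come from different probes and are not comparable. On chromosome 13 the proteoglycan genes are highest at Day 14 while the flanking genes Cenpp and Nol8 are highest in mESC.

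Podnl1, Chad, Tsku and Nyx are family members outside these clusters. Podnl1, a relative of podocan, was lower at Day 9 than in mESC (−1.02 ± 0.13; adjusted p = 1.36e-05) and higher at Day 14 than at Day 9 (1.29 ± 0.13; adjusted p = 5.49e-06). Chad (chondroadherin) and Tsku (tsukushi) were not called in any comparison, with log2 differences between −0.61 and 0.58. Nyx (nyctalopin) did not pass the brightness filter. Of the 8 other family genes listed, 6 were tested: 2 were called higher at Day 14 than in mESC (Epyc and Ecm2), 1 higher (Epyc) and 1 lower (Podnl1) at Day 9 than in mESC, and 4 higher at Day 14 than at Day 9 (Kera, Epyc, Ecm2 and Podnl1). Of all genes 22.8%, 20.0% and 10.2% were called higher in these comparisons, and 21.0% lower at Day 9 than in mESC. The 1 of 6 either way at Day 9 is near these shares. The median log2 fold changes of these tested genes were 0.76, −0.20 and 1.19, against −0.19, −0.16 and −0.09 over all genes. Kera and Ecm2 passed the brightness filter only through Day 14 arrays, which favoured calls higher at Day 14. The Epyc probe used passed it only through Day 9 and Day 14 arrays, which favoured its calls against mESC.

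Some of the enzymes that build the sugar chains were higher at both days than in mESC. Of 21 tested genes for the linkage region and for chondroitin or dermatan sulfate, 11 were higher and 1 lower (Chst3) at Day 14 than in mESC, 8 higher and 1 lower (Chst3) at Day 9 than in mESC, and 2 higher and none lower at Day 14 than at Day 9, with medians of 1.00, 0.70 and 0.23. Of all genes 22.8%, 20.0% and 10.2% were called higher in these comparisons, a background that holds for the lists that follow too, and 2 of 21 is near the last of these shares. Chsy3, a chondroitin synthase, was at least 7.87-fold higher at Day 14 and at least 10.4-fold higher at Day 9 than in mESC (means −6.57 ± 0.38 in mESC, −1.97 ± 0.22 at Day 9 and −2.38 ± 0.12 at Day 14). Dsel, a dermatan sulfate epimerase-like gene, rose by 2.75 ± 0.12 at Day 14 against mESC, and Chst14, the dermatan 4-O-sulfotransferase, by 2.42 ± 0.10 at Day 9 against mESC. Csgalnact1, which starts chondroitin chains, and Chst11, a chondroitin 4-O-sulfotransferase, were the genes called at Day 14 against Day 9, at 1.71 ± 0.17 and 1.12 ± 0.09 (log2 ± SE; adjusted p = 5.67e-06 and 8.06e-07).

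Of 9 tested genes for keratan sulfate and tyrosine sulfation, 5 were higher and 1 lower at Day 14 than in mESC, 3 higher and 1 lower at Day 9 than in mESC, and 2 higher at Day 14 than at Day 9. Chst1, the keratan sulfate 6-O-sulfotransferase, rose by 4.36 ± 0.15 at Day 14 and by 3.76 ± 0.15 at Day 9 against mESC (adjusted p = 9.15e-11 and 4.04e-10). Chst2, a 6-O-sulfotransferase of N-acetylglucosamine, rose by 3.76 ± 0.12 and 2.40 ± 0.12 in the same comparisons and by 1.36 ± 0.12 at Day 14 against Day 9. B3gnt7, which extends keratan sulfate, was at least 1.83-fold higher at Day 14 than in mESC, and B3gnt2, a broader chain-extending enzyme, was the gene called lower, by −2.33 ± 0.07 at Day 9 against mESC.

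The collagens that these proteoglycans bind rose against mESC at both days. All 12 fibril and beaded-filament collagens tested were higher at Day 14 and at Day 9 than in mESC, with median log2 fold changes of 7.61 and 6.43, and 7 of the 12 were higher at Day 14 than at Day 9 (median 1.09) and none lower. Col3a1, a main collagen of soft tissue, was at least 3306-fold higher at Day 14 and at least 2559-fold higher at Day 9 than in mESC, and did not differ by the call rule between the days (0.37). The collagen VI chains, which form beaded filaments that bind decorin and biglycan, were the ones with the largest rise after Day 9 together with Col12a1: Col6a2 rose by 3.78 ± 0.06 and Col6a1 by 3.51 ± 0.24 at Day 14 against Day 9, and Col12a1 by 2.25 ± 0.15 (log2 ± SE; adjusted p = 5.56e-12, 3.6e-07 and 2.81e-07). Col6a2 had levels of −4.59 ± 0.09 in mESC, −1.60 ± 0.05 at Day 9 and 2.18 ± 0.09 at Day 14. Col1a1 and Col3a1 also stand in the fibroblast list above, and Col2a1 in the cartilage list.

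**Figure D5:**
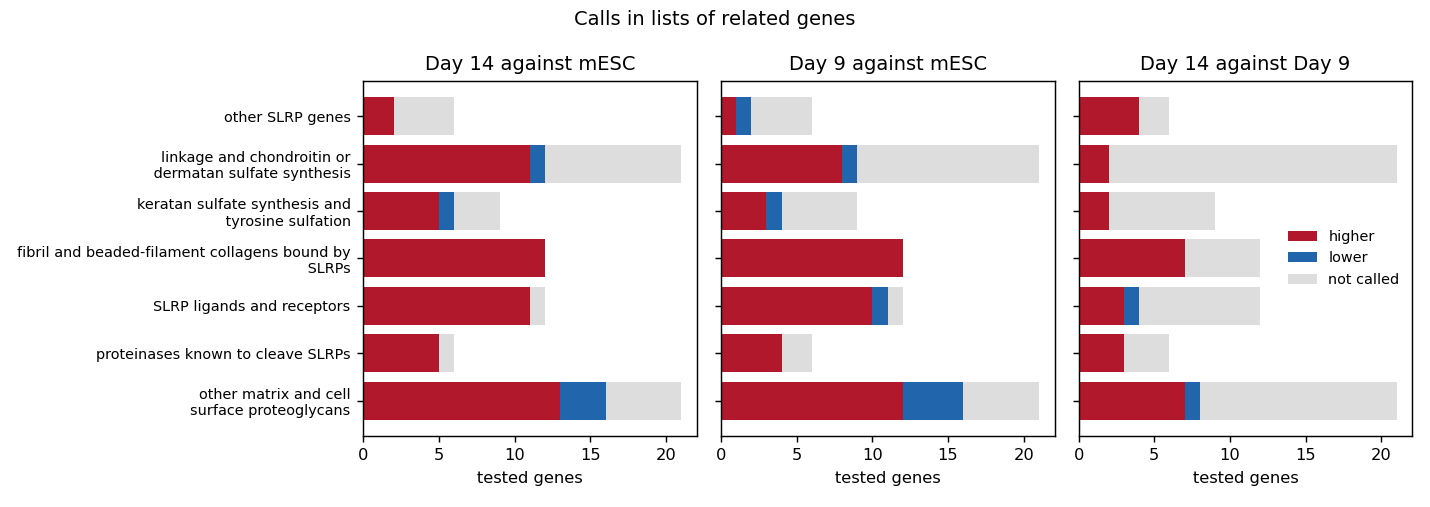
Number of tested genes called higher (red), lower (blue) or not called (grey) in 7 lists related to the small leucine-rich proteoglycans (SLRPs), for the 3 comparisons. All 12 collagens are red in both comparisons with mESC, and 2 of 21 chondroitin or dermatan sulfate genes are red at Day 14 against Day 9.

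Among ligands and receptors of these proteoglycans, 11 of 12 tested genes were higher and none lower at Day 14 than in mESC, 10 were higher and 1 lower (Tlr2) at Day 9 than in mESC, and 3 were higher (Tgfb3, Tlr4 and Met) and 1 lower (Tgfb2) at Day 14 than at Day 9. Tgfb3 and Tgfb2 encode TGF-beta forms that decorin binds. Tgfb3 had levels of −2.95 ± 0.08 in mESC, 2.23 ± 0.15 at Day 9 and 4.80 ± 0.11 at Day 14, and Tgfb2 −4.88 ± 0.14 in mESC, 2.43 ± 0.14 at Day 9 and 0.91 ± 0.04 at Day 14 (SD, n = 4 each), so the one was highest at Day 14 and the other at Day 9. Tlr4, a receptor of biglycan, was at least 4.75-fold higher at Day 14 than at Day 9 (adjusted p = 8.39e-10), and Met, a receptor that decorin binds, rose by 2.11 ± 0.13 (adjusted p = 1.31e-07). Ccn4, a matricellular protein that binds decorin and biglycan, was at least 577-fold higher at Day 14 and at least 527-fold higher at Day 9 than in mESC.

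Of 6 tested genes listed for the cutting or processing of these proteoglycans, 5 were higher at Day 14 than in mESC and 4 at Day 9 than in mESC. At Day 14 against Day 9, 3 were higher, and none was lower in any comparison. These counts include Pcolce, which encodes an enhancer of procollagen processing and not a proteinase. Adamts5, an aggrecanase, was at least 193-fold higher at Day 14 and at least 57.0-fold higher at Day 9 than in mESC. Bmp1, which removes the propeptide of biglycan, rose by 4.01 ± 0.06 at Day 14 and 3.85 ± 0.06 at Day 9 against mESC, and by 0.15 between the days, which was not called. Mmp2, a gelatinase that also cleaves decorin, and Adamts4, another aggrecanase, rose at Day 14 against Day 9 by 1.35 ± 0.11 and 2.11 ± 0.10 (log2 ± SE; adjusted p = 9.72e-07 and 1.67e-08).

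The genes whose pattern was most like that of a member were ranked by Pearson's r with it over the 12 arrays, among 15551 other named genes. The arrays fall into 3 groups, so r mostly reads the 3 group means and is given as a description. The highest r was 0.9998 for Dcn (Mfap4, then St8sia4 and Fam114a1), 0.9988 for Lum (Epha3, then Cavin3 and Col6a3) and 0.9997 for Fmod (Upk3b, then Cpz and Hacd4). It was 0.9957 for Bgn (Apol9b, then Fcrls and Tmem63a), 0.9995 for Ogn (Casp12, then Ifi202b and Tgfbr2), 0.9964 for Prelp (Il10ra, then Hcls1 and Cdkn2b) and 0.9989 for Aspn (Ifi27, then Vegfd and Cbx6). No member had another member among its 3 most alike genes. Between members r was 0.9945 for Dcn and Lum, where Lum ranked 192 among the genes like Dcn, 0.9914 for Fmod and Ogn, 0.9696 for Prelp and Aspn, and 0.6592 for Lum and Aspn, the lowest pair.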

How the data were processed

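Total RNA was labelled with Cy3 and read on 12 one-colour arrays, and each array was extracted with Agilent Feature Extraction 12, per the submitters' processing notes and the file headers. The deposited processed signal is an intensity after background subtraction, per the file headers, and other deposited columns used are the median signal and local background, also intensities, and flags of 0 or 1 (other) for spots well above background, saturated or outlying. The series value table held the same intensities. Control spots and outlier spots were left out, spots of 1 probe were averaged as log2 values of the deposited intensities, and the log2 of each array's 75th percentile was subtracted. Of 41174 probes, 28385 were well above background on at least 3 of 4 arrays of a group and were tested. Each gene is represented by its probe of highest mean. Accessions were matched to GRCm38.p6, which named 28223 probes, and Wisp1 is given by its present symbol Ccn4.

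Groups were compared with limma 3.58.1 in R 4.3.3 (two-sided, 1 fit over 12 arrays, Benjamini-Hochberg over 20875 genes, of which 15557 had a symbol). The fit was tested on simulated data. Where all probes of a gene lay below background in a group, the fold is a bound against the higher of the probe's own signal and the dimmest signal well above background on each array, and another probe can lie below it. The named genes are all members and other family genes, up to 3 called genes with the largest change per related list and comparison, the 3 genes most like each member, and the genes flanking the clusters. The members and lists were chosen with earlier results of these data known. Alternatives were normexp correction, quantile and median scaling, the series table, other probe filters and summaries, fits on 8 arrays, with a variance trend or with a replicate block, and leaving out each array. Python 3.11.15 and pandas 2.3.3 were used for tables.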

Additional observations from a re-analysis of the deposited data

Results flagged for a closer look

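One value of the 7 tested genes stood far from its group. Lum on mESC replicate 2 lay at −7.64, while the other 3 mESC arrays lay between −6.50 and −6.28. It was flagged because its gap to the nearest array is most of the range of the group. Of 21 sets of 4 arrays examined this way, 1 was flagged, and chance flags about 1 in 20. All 4 mESC arrays were below background for Lum, so the fold changes of Lum against mESC are given as bounds.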

How the results depend on the processing

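The members called were 7 for Day 14 over mESC, 6 for Day 9 over mESC and 7 for Day 14 over Day 9. They were counted under 23 other settings, and 66 of 69 such counts stayed within 1.5 times. The exceptions came from keeping only probes above background on all 12 arrays, which left Bgn and Fmod to test: 2, 2 and 2 were called. Normexp correction called 4 members at Day 9 against mESC, where Aspn changed sign (−0.14, not called under either setting), and the call was lost for Bgn (0.64) and Prelp (0.08), and for Prelp also with the mean of its probes (0.42). Of 447 fold changes of members, 443 kept their direction and call. Over all genes, the calls in the 3 comparisons were 9783, 8565 and 2880, and 5849, 4760 and 1232 with normexp, 6430, 5483 and 1305 with probes above background on all 12 arrays, and 17769, 17402 and 13219 on the adjusted p alone. Why normexp called fewer genes was not tested. The other 60 of 69 counts over all genes stayed within 1.5 times. Leaving out each array in turn gave 7 to 7, 6 to 6 and 7 to 7 members, and 9755 to 9803, 8545 to 8631 and 2839 to 2924 genes.

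Replicate numbers are shared between groups, and same-numbered arrays deviated together weakly or not at all (r of −0.075 to 0.184). Between Day 14 and Day 9 the same-numbered array was the best match for replicates 1, 2 and 3 (r of 0.184, 0.038 and 0.027), and not for 4 (−0.061). The check does not settle whether the numbers pair the arrays of those days. With the replicate number as a block, 7, 6 and 7 members and 9783, 8564 and 2876 genes were called. Signal over background limits Omd, Podn, the mESC side of Dcn, Lum, Ogn, Prelp and Aspn, and the Day 9 side of Aspn.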

Other observations

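Proteoglycans outside the family, of the matrix and the cell surface, moved in both directions. Of 21 tested genes, 13 were higher and 3 lower at Day 14 than in mESC, 12 higher and 4 lower at Day 9 than in mESC, and 7 higher and 1 lower at Day 14 than at Day 9, with median log2 fold changes of 1.53, 1.38 and 0.38. Cspg4 (NG2, a proteoglycan of pericytes) rose by 4.73 ± 0.17 and Gpc3 (glypican 3) by 4.12 ± 0.06 at Day 14 against mESC (log2 ± SE, n = 4 arrays each; adjusted p = 1.43e-10 and 9.38e-14). Spock3 (a testican) was at least 11.2-fold higher at Day 14 than in mESC. Vcan, which encodes versican of the early heart matrix, rose by 4.36 ± 0.08 at Day 9 against mESC (adjusted p = 7.8e-13) and was not called at Day 14 against Day 9 (−0.89).

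The genes called lower against mESC were Bcan (brevican), Acan (aggrecan) and Spock2 at both days, and Sdc4 (syndecan 4) at Day 9. Bcan was at least 15.1-fold lower at Day 9 than in mESC (means −6.74 ± 0.95 and −1.83 ± 0.08, SD, n = 4 each). Between the days, Spock3, Ncan (neurocan) and Srgn (serglycin, a proteoglycan of blood cell granules) rose by 2.03 ± 0.22, 1.87 ± 0.25 and 1.41 ± 0.18 at Day 14 against Day 9 (adjusted p of 5.34e-05 or less in all 3), and Tgfbr3, a TGF-beta co-receptor, fell by 1.00 ± 0.19 (adjusted p = 0.000816). Genes named here beyond the 3 largest changes of each comparison were named after their values were seen.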
